A study of Mus musculus with 6 samples.

Results

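Hyaluronan is a long, unsulfated glycosaminoglycan of the pericellular and extracellular matrix. The genes described here are the 9 that make it, cut it or bind it: the hyaluronan synthases Has1, Has2 and Has3, the hyaluronidases Hyal1 and Hyal2, the hyaluronan depolymerase gene Cemip, the receptor gene Cd44, the large proteoglycan gene Vcan (versican) and the link protein gene Hapln1. The list was drawn up by function, with earlier results of these data known, and its genes were found by symbol among the 55401 genes of the count files. Each symbol matched 1 Ensembl identifier. Of the 9, 8 entered the test; Hapln1 had no counts in any library.

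The synthases build hyaluronan at the plasma membrane from UDP-N-acetylglucosamine and UDP-glucuronic acid and push the growing chain out of the cell. HYAL2, which is held at the cell surface by a lipid anchor, and CEMIP cut long chains outside or at the surface of the cell, and HYAL1 and exoglycosidases finish the digestion in lysosomes. CD44 is the main surface receptor of hyaluronan, and versican, tied to the chain by link proteins, swells into a hydrated coat around fibroblasts.

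NIH3T3 cells, an immortalized line of mouse embryonic fibroblasts, were compared in 3 conditions, 6 libraries in all. EV cells carried an empty vector and received the vehicle DMSO (2 libraries). TC cells expressed TAZ-CAMTA1, the fusion protein of epithelioid hemangioendothelioma in which part of the YAP homolog TAZ is joined to CAMTA1, and received DMSO (1 library). TC + ATA cells expressed the same fusion and received 10 μM aurintricarboxylic acid (ATA), a small molecule that the study tested as a disruptor of TAZ-TEAD binding (3 libraries). Treatment lasted 48 h in every group. None of the 6 libraries came from EV cells given ATA, so effects of ATA that need the fusion and those that do not cannot be told apart. The labels number the libraries but do not say whether they came from separate cultures, so p-values measure only the spread between these libraries, which may be technical. TC had 1 library, so comparisons with it have no replicates on that side.

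The libraries held 58471484 to 74413193 counts. All 9 fibroblast markers examined were above 1 CPM (counts scaled to a common library size after TMM normalisation) in every library, with a summed level of 14705 to 16853 CPM in EV, 18594 in TC and 18208 to 19393 in TC + ATA. The sum hid opposite changes, since edgeR called 2 of the 9 higher (Col1a1 and Vim) and 3 lower in TC versus EV. The 3 that fell were Thy1, from 193 to 69.6 CPM (log2 fold change -1.47), Pdgfra, from 413 to 180.1 CPM (-1.20), and Fn1, from 2686 to 1516 CPM (-0.83), named after their values were seen. Those of Thy1 and Pdgfra were similar in size to the falls of Has2 and Vcan, and the part of these markers in the results was not tested. The summed levels of 6 endothelial markers, 6 epithelial markers and 5 leukocyte markers did not exceed 8.54 CPM in any library. The 4 smooth muscle markers, mostly Acta2, which fibroblasts also express, summed to 372 to 493 CPM in EV, 653 in TC and 1216 to 1285 in TC + ATA. Wwtr1, the mouse gene of TAZ, had 107 CPM in EV on average and 139 in TC (log2 fold change 0.37, edgeR adjusted p = 0.00697). Camta1, the mouse gene of the other fusion partner, had 17.2 CPM in EV on average and 19.2 in TC (log2 fold change 0.16) and was not called. The counts of either gene do not separate the introduced sequence from the mouse gene.

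Hyaluronan genes moved in both directions when TC was expressed. Cemip, Has2 and Vcan fell, Cd44 rose, and Has1, Has3, Hyal1 and Hyal2 did not pass the test. Of the 8 members tested in TC versus EV, 3 were lower and 1 was higher at an adjusted p of at most 0.05 (edgeR's quasi-likelihood test, all 6 libraries in one fit, adjusted over the 18539 genes tested). In the same comparison, 28.0% of all genes tested were called, 14.8% as higher and 13.2% as lower. With scaling by library size only, 39.6% of all the calls were higher, against 52.7% with TMM, and the calls of these 4 members and their directions were the same. None of the members called passed the further limit of 2 on the absolute log2 fold change, which 3.64% of all genes passed together with the adjusted p. The median log2 fold change of the 8 members was -0.12, beside -0.03 over all genes tested. Since the libraries are bulk samples, fewer cells with a transcript and less of it per cell cannot be told apart.

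**Figure D1:**
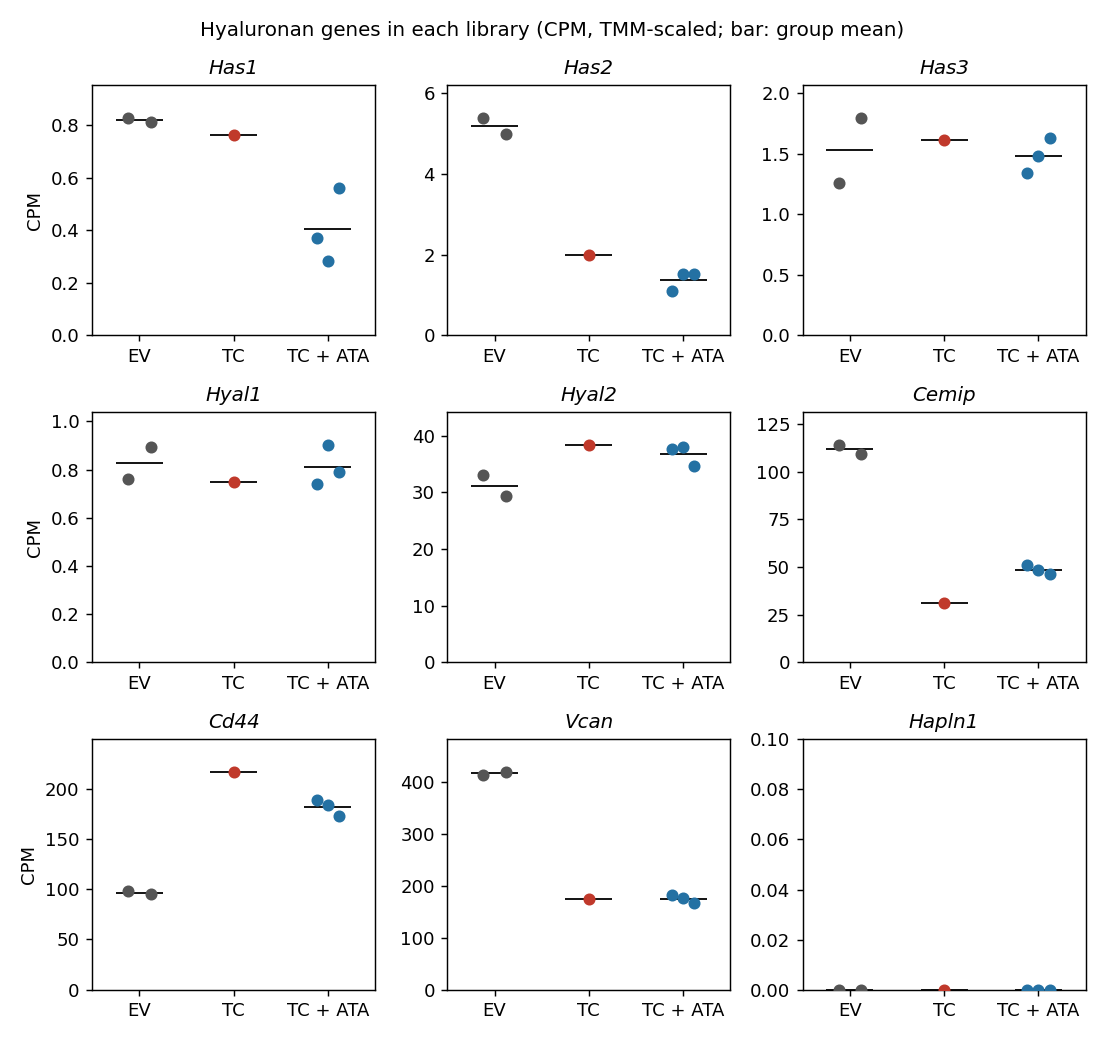
CPM of each of the 9 hyaluronan genes (vertical axes, each from 0) in the 2 EV, 1 TC and 3 TC + ATA libraries; points are libraries and bars are group means. Cemip, Has2 and Vcan lie lower in every TC-expressing library than in both EV libraries, Cd44 lies higher, and Hapln1 is at 0 throughout.

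Compared per kilobase of exon, the order of the genes was not the same in EV and TC. In EV cells, Vcan had the highest level at 28.8 ± 0.296 RPKM (SD, n = 2; CPM divided by the exonic length in kilobases), followed by Cd44 at 14.2 ± 0.300 RPKM. Hyal2 at 9.48 ± 0.783 RPKM and Cemip at 9.14 ± 0.273 RPKM came next, and these neighbours overlapped. Has2 was at 1.22 ± 0.0697 RPKM. Has3, Hyal1 and Has1 were between 0.180 and 0.282 RPKM in both EV libraries, with Has3 and Hyal1 overlapping each other. In the TC library, Cd44 came first at 31.97 RPKM, ahead of Vcan at 12.1 and Hyal2 at 11.7 RPKM, and Cemip at 2.55 RPKM was below Hyal2. In TC + ATA cells, Cd44 was at 26.8 ± 1.21, Vcan at 12.1 ± 0.531 and Hyal2 at 11.2 ± 0.552 RPKM (SD, n = 3), with Vcan from 11.6 to 12.7 and Hyal2 from 10.5 to 11.5 RPKM, which did not overlap. Cemip was at 3.97 ± 0.198 RPKM and Has2 at 0.326 ± 0.0557 RPKM. The exonic lengths cover all annotated isoforms of a gene.

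Among the synthases, Has2 had the highest level and was the one called lower in TC. Has2, on chromosome 15 from 56665627 to 56694539 (GRCm38, minus strand), encodes the synthase of most mesenchymal hyaluronan. It had 5.39 and 4.97 CPM in the EV libraries, 1.99 CPM in TC and 1.11, 1.51 and 1.52 CPM in TC + ATA. Both EV libraries were above every TC-expressing library, and all 3 TC + ATA libraries were below the TC library. Against EV, its log2 fold change in TC was -1.38 (standard error, SE, 0.26, edgeR adjusted p = 0.00414), that is 2.60-fold lower, from 403 and 379 counts to 138. Between TC + ATA and TC it was -0.52 (95% interval -1.07 to 0.03, edgeR adjusted p = 0.548), which did not pass the test. Between TC + ATA and EV it was -1.90 (SE 0.18, edgeR adjusted p = 5.80e-05).

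Has1 and Has3 were low. Has1 (chromosome 17, 17843323 to 17855205) had 62 counts in each EV library, 53 in TC and 21, 20 and 39 in TC + ATA. The TC value was close to EV, and the 3 TC + ATA values were below all others. For TC against EV its log2 fold change was -0.10 (95% interval -1.21 to 1.00), for TC + ATA against TC -0.91 (95% interval -1.95 to 0.12) and for TC + ATA against EV -1.02 (95% interval -1.86 to -0.18, edgeR adjusted p = 0.0591). The last comparison passed the threshold in 3 of 12 alternative settings, with edgeR adjusted p-values of 0.0418 at the lowest and 0.177 at the highest over the 12. Has3 (chromosome 8, 106870242 to 106884566) had 1.26 and 1.80 CPM in EV, 1.61 in TC and 1.34, 1.48 and 1.62 in TC + ATA. The groups overlapped, and from EV to TC its log2 fold change was 0.08 with TMM and -0.04 with scaling by library size only (95% interval with TMM -0.65 to 0.81).

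Has2 took a smaller share of the synthase reads in every TC-expressing library than in EV. Summed per kilobase, the 3 synthases came to 1.65 and 1.63 RPKM in EV, 0.891 RPKM in TC and 0.553, 0.651 and 0.739 RPKM in TC + ATA. Has2 made up 77.0% and 71.8% of that sum in EV, 52.7% in TC and 47.3%, 54.7% and 48.7% in TC + ATA. Has3 made up 11.9% and 17.2% in EV, 28.4% in TC and 37.9%, 35.7% and 34.5% in TC + ATA. These shares are descriptions and were not tested.

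**Figure D2:**
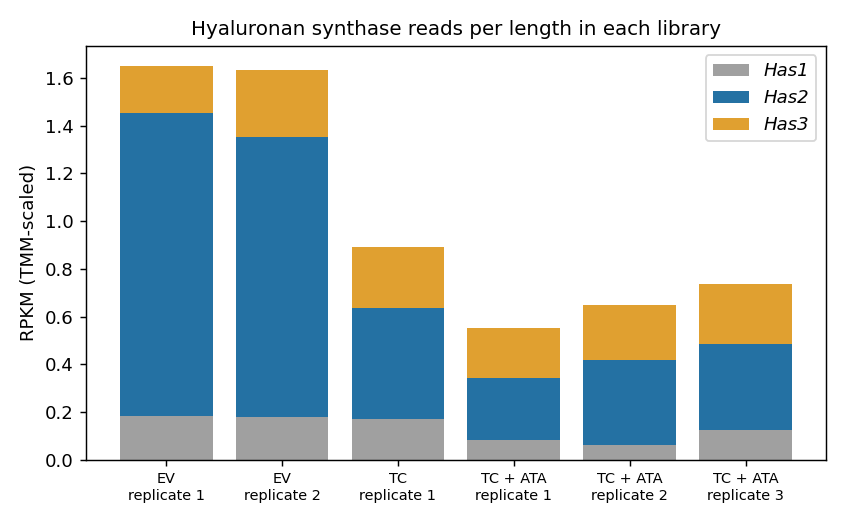
RPKM (CPM per kilobase of exon, vertical axis) of Has1, Has2 and Has3, stacked for each of the 6 libraries. The stack is 1.63 to 1.65 RPKM in EV and 0.553 to 0.891 RPKM in the TC-expressing libraries, with a smaller Has2 part.

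Several genes of the route that makes the sugar nucleotides for the synthases were also lower in TC. Of 7 genes on it, 4 were called lower in TC versus EV and none higher at the adjusted p of edgeR (5 lower and none higher at an unadjusted p under 0.05; 4 lower and none higher in DESeq2), beside 13.2% of all genes tested called lower. Uap1, which makes UDP-N-acetylglucosamine, had the largest of these changes, with 88.2 CPM in EV and 55.4 in TC (log2 fold change -0.67, SE 0.08, edgeR adjusted p = 0.000365). Gfpt2, an isoform of the enzyme that opens the hexosamine pathway, had -0.60, Pgm3, a phosphoacetylglucosamine mutase, -0.43, and Ugp2, which makes UDP-glucose, -0.36. Of 13 alternative settings, 3 ended the call of Gfpt2, 5 that of Pgm3 and 3 that of Ugp2, with edgeR adjusted p-values of up to 0.104, 0.137 and 0.141. Ugdh, which oxidizes UDP-glucose to UDP-glucuronic acid, was not called, and the median log2 fold change of the 7 was -0.36. Gnpnat1, also among the 7 and not called, had 10 to 21 counts. It shares 3952 of its 4735 exonic bases with other genes, so its count is uncertain. Between TC + ATA and TC, edgeR called none of the 7, none had an unadjusted p under 0.05, and DESeq2 called none.

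Among the hyaluronidase and depolymerase genes, Cemip was the one called lower in TC. Cemip (chromosome 7, 83932857 to 84086502, minus strand) encodes a secreted protein needed by skin fibroblasts to break down high-molecular-weight hyaluronan. It had 114 and 109 CPM in EV, 31.2 CPM in TC and 51.0, 48.3 and 46.2 CPM in TC + ATA. The 3 groups did not overlap, with TC lowest and TC + ATA between TC and EV. It fell in TC by a log2 fold change of -1.84 (SE 0.10, edgeR adjusted p = 2.49e-06), that is 3.58-fold lower, and it ran from -1.95 to -1.82 over 13 alternative settings, all of which kept the call.

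Cemip was also the one member called in TC + ATA versus TC. Its log2 fold change there was 0.63 (SE 0.09, edgeR adjusted p = 0.0180), that is 1.55-fold higher, with all 3 TC + ATA libraries above the TC library. In that comparison 0.583% of all genes tested were called, 0.426% as higher and 0.156% as lower. Leaving out a single TC + ATA replicate ended the call (for each of the 3, edgeR adjusted p = 0.0980, 0.132 and 0.0937), as did a block for the replicate number (edgeR adjusted p = 0.104), while the log2 fold change stayed between 0.60 and 0.70 over all 13 settings. The other 9 settings kept the call. The fall of Cemip in TC and its rise from TC to TC + ATA both rest on the only TC library, which no setting left out. Against EV, Cemip was still lower in TC + ATA (log2 fold change -1.21, SE 0.06, edgeR adjusted p = 1.52e-06). Of the 4 smooth muscle markers summed above, Acta2 was called higher in TC + ATA than in TC (log2 fold change 0.97, edgeR adjusted p = 0.0303). The part of these markers in the rise of Cemip from TC to TC + ATA was not tested.

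Hyal1 and Hyal2 lie side by side on chromosome 9, 4147 bases apart, and neither passed the test in TC versus EV. Hyal2 (107567945 to 107572779) had 33.0 and 29.4 CPM in EV, 38.4 in TC and 37.7, 37.9 and 34.7 in TC + ATA. Every TC-expressing library was above both EV libraries. Relative to EV, its log2 fold change was 0.30 in TC (95% interval 0.07 to 0.53, edgeR adjusted p = 0.0605) and 0.24 in TC + ATA (95% interval 0.06 to 0.42, edgeR adjusted p = 0.0424). This second call was lost in 6 of 13 settings, among them scaling by library size (edgeR adjusted p = 0.134), the replicate block (edgeR adjusted p = 0.0819) and the fits without EV replicate 2 or without 1 of the TC + ATA replicates (edgeR adjusted p = 0.0584 to 0.150).

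Hyal1 (107576927 to 107581710) was much lower, with 57 and 68 counts in EV, 52 in TC and 42, 64 and 55 in TC + ATA. The groups overlapped, and log2 fold changes were -0.14 between TC and EV (95% interval -1.01 to 0.72) and 0.12 between TC + ATA and TC (95% interval -0.70 to 0.94). Of its 3777 exonic bases, 1961 also belong to other genes, mostly Naa80 on the same strand, so its count is uncertain. Hyal3, the next gene of the cluster, had 2 to 12 counts, Hyal6 had 0 to 10, and Hyal4, Hyal5 and Spam1, which are known from testis and other specialised tissues, had none. Cemip2, a paralog of Cemip that encodes a membrane protein, was higher in TC than in EV (28.2 and 36.0 CPM, log2 fold change 0.35, edgeR adjusted p = 0.0269), a call lost in 5 of 13 settings, with edgeR adjusted p-values of up to 0.167. Hexa, a subunit of lysosomal beta-hexosaminidase, rose from 65.9 to 126 CPM (log2 fold change 0.93, SE 0.09, edgeR adjusted p = 9.91e-05), while Gusb, which encodes beta-glucuronidase, had a log2 fold change of -0.04 and was not called.

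Cd44 was the member that rose. Cd44 (chromosome 2, 102811141 to 102901665, minus strand) had 97.7 and 94.8 CPM in EV, 217 CPM in TC and 188, 183 and 172 CPM in TC + ATA. Every TC-expressing library was above both EV libraries, and the 3 TC + ATA libraries were below TC. Its rise in TC was a log2 fold change of 1.17 (SE 0.08, edgeR adjusted p = 1.27e-05), that is 2.25-fold higher than in EV, and the value for TC + ATA was 0.91 (SE 0.07, edgeR adjusted p = 8.71e-06). Comparing TC + ATA with TC, it was -0.26 (95% interval -0.44 to -0.08, unadjusted p = 0.0106 and edgeR adjusted p = 0.295). That difference passed the threshold when the fit held no EV library (edgeR adjusted p = 0.00673) and without either EV replicate, where EV with 1 library adds nothing to the estimate of the spread (edgeR adjusted p = 0.00571 and 0.00787).

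Other receptors and the proteins that tie CD44 to actin moved in different directions. Of 8 surface receptor genes, 7 were tested, and in TC versus EV 2 were higher and 1 lower, 42.9% of those tested beside 28.0% of all genes. Besides Cd44, Tlr4 rose from 20.2 to 73.6 CPM (log2 fold change 1.86, SE 0.08, edgeR adjusted p = 1.13e-06) and Tlr2 fell from 15.4 to 3.49 CPM (log2 fold change -2.15, SE 0.16, edgeR adjusted p = 1.57e-05). Both encode Toll-like receptors reported to respond to hyaluronan fragments. Hmmr, which encodes a hyaluronan-binding protein of the mitotic spindle, and Layn, which encodes the lectin layilin, had log2 fold changes of -0.30 and 0.25 and were not called, and Lyve1, Stab1 and Stab2, markers of lymphatic and sinusoidal endothelium, had 2 to 35 counts. Of the ERM linkers, ezrin (Ezr, log2 fold change 1.51) and moesin (Msn, 0.79) were higher in TC and radixin (Rdx, -0.47) was lower, with edgeR adjusted p-values of 2.50e-06, 0.000153 and 0.00369. The call of Rdx was lost in a fit of EV and TC alone (edgeR adjusted p = 0.113) and with the replicate block (edgeR adjusted p = 0.0553). Between TC + ATA and TC, edgeR called none of the 7 receptors and none of the 3 linkers (at an unadjusted p under 0.05, Cd44 and Msn were lower; DESeq2 called none).

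Vcan fell in TC and did not pass the test between TC + ATA and TC. Vcan (chromosome 13, 89655312 to 89742509, minus strand) had 414 and 420.03 CPM in EV, 175 CPM in TC and 183, 176 and 168 CPM in TC + ATA. Both EV libraries were above every TC-expressing library, and the TC library lay within the range of TC + ATA. Relative to EV, its log2 fold change was -1.25 in TC (SE 0.09, edgeR adjusted p = 1.52e-05), that is 2.38-fold lower, and -1.25 in TC + ATA (SE 0.06, edgeR adjusted p = 1.09e-06). From TC to TC + ATA it was 0.01 (95% interval -0.18 to 0.19, edgeR adjusted p = 0.991).

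Hapln1, the gene of cartilage link protein, had 0 counts in all 6 libraries, which allows a level of up to 0.0403 to 0.0513 CPM (3 counts of each library's total). It is the neighbour of Vcan on chromosome 13 (89539796 to 89611652, plus strand), with 43659 bases and no other protein-coding gene between them. Link protein and hyalectan genes are paired in this way at 4 places in the mouse genome, and the partners differed in level at 3 of them. Hapln4 had 569 to 855 counts beside 0 to 20 of its neighbour Ncan, and Bcan had 85 to 133 counts beside 0 to 10 of Hapln2. At the fourth place both were low, Hapln3 with 0 to 13 counts and Acan (aggrecan) with 0 to 2. Hapln4 was higher in TC than in EV (7.93 and 10.99 CPM, log2 fold change 0.47, edgeR adjusted p = 0.0204), which did not hold in a fit of EV and TC alone (edgeR adjusted p = 0.137), with scaling by library size (edgeR adjusted p = 0.0953), with the replicate block (edgeR adjusted p = 0.0652) or without TC + ATA replicate 3 (edgeR adjusted p = 0.0516).

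**Figure D3:**
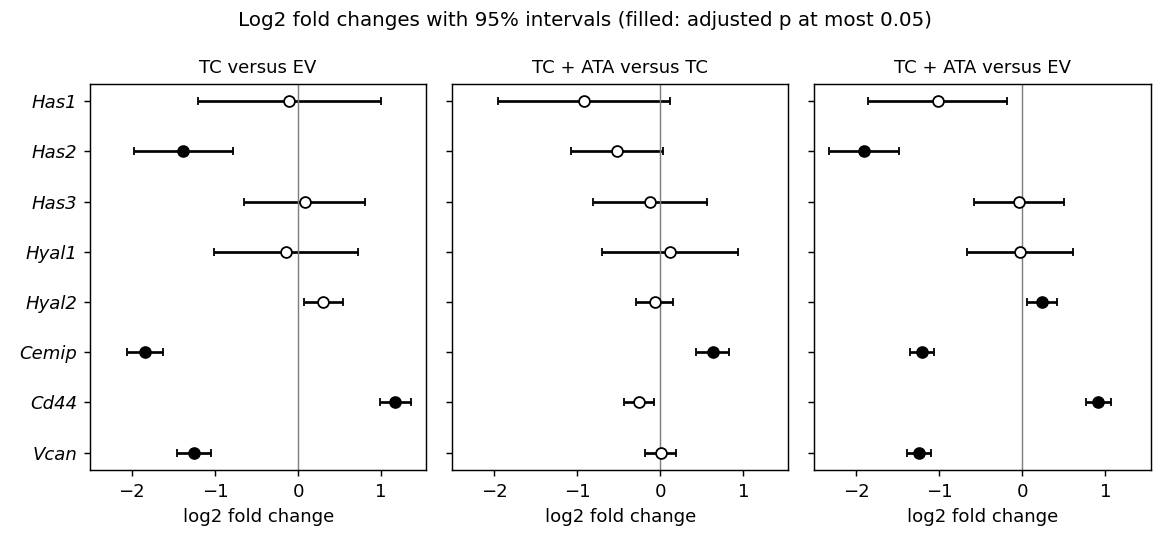
Log2 fold changes (horizontal axis) of the 8 tested hyaluronan genes in the 3 comparisons between groups, with 95% intervals from edgeR; filled points have an adjusted p of at most 0.05. Cemip at 0.63 is the only filled point in TC + ATA versus TC, and the TC library takes part in the first and second panels.

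Compared with EV, Cemip, Has2 and Vcan were lower and Cd44 higher in TC + ATA as well, and Hyal2 passed the test. In TC + ATA versus EV, 2 of the 8 members (Cd44 and Hyal2) were higher and 3 (Cemip, Has2 and Vcan) lower, beside 36.6% of all genes tested called in either direction, 18.0% as higher and 18.6% as lower (38.2% of the calls were higher with scaling by library size only, against 49.2% with TMM). For the members called in TC versus EV, the log2 fold changes from EV, in TC first and then in TC + ATA, were -1.84 and -1.21 for Cemip, -1.38 and -1.90 for Has2, -1.25 and -1.25 for Vcan and 1.17 and 0.91 for Cd44. The comparisons share the EV libraries. From TC to TC + ATA, 1 of the 8 members was higher and edgeR called none lower (1, Cd44, was lower at an unadjusted p under 0.05, and DESeq2 called none lower).

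The 5′ flanks of 3 of the 4 members called in TC versus EV are shown because TAZ and its fusion act through TEAD factors, and ATA was tested against that binding. RefSeq promoter sequences (GRCm38.p6) were matched for 7 of the 9 members. None was available for Has3 or for Has2, the remaining member called in TC versus EV, so the motif search does not cover them. The 250 bases before the annotated start are printed 5′ to 3′ on the gene's strand for Cemip (chr7:84086506-84086755, minus strand), which fell in TC and was higher in TC + ATA than in TC, for Vcan (chr13:89742513-89742762, minus strand), which fell in TC, and for Cd44 (chr2:102901666-102901915, minus strand), which rose. Capitals mark matches to TATAAA, the TATA box, and to GGGCGG, the GC box, whose reverse complement marks a box on the other strand. Both strands were searched.
Cemip: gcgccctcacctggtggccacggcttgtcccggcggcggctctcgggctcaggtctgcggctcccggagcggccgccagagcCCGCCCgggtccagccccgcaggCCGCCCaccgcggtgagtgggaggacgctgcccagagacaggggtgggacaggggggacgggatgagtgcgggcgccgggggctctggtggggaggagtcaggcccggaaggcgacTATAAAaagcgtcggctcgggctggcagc
Vcan: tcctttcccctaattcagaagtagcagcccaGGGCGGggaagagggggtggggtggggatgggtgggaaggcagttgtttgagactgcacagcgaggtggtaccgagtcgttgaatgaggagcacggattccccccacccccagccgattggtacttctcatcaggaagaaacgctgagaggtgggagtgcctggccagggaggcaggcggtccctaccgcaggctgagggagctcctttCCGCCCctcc
Cd44: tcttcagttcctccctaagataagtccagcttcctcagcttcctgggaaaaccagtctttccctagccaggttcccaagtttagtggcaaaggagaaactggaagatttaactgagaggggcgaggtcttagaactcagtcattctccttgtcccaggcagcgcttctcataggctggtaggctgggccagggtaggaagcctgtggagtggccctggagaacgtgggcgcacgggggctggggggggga

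Neither GGAATG, the core of the TEAD motif, nor TGANTCA, the AP-1 motif, occurred on either strand in these 3 windows. Among all 32851 RefSeq windows of this length, 12.6% held GGAATG and 6.75% held TGANTCA. Of the 7 members' windows only that of Hyal2 held GGAATG, with its first base 229 bases before the RefSeq start. The Hyal2 window (chr9:107568913-107569162) lies inside the GENCODE gene model given above, so this match is downstream of the GENCODE start. The Hapln1 window (chr13:89540386-89540635) also lies inside its GENCODE gene model. A missing match says only that these letters are not in the 250 bases. The Cemip window had a TATA box from 29 to 24 bases before the start (12.4% of all windows hold one), 2 GC boxes, 26 CpG dinucleotides and a GC content of 75.2%. The Vcan window had 2 GC boxes, 10 CpG dinucleotides and 62.4% GC, and the Cd44 window had neither motif, 5 CpG dinucleotides and 56.4% GC. Over all windows, 32.7% held a GC box, and the median was 6 CpG dinucleotides and 52.4% GC.

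Several genes of proteases that cut versican outside the cell fell in TC. Of 6 ADAMTS genes whose proteases can cleave hyalectans, 4 were tested and 3 fell in TC versus EV, beside 13.2% of all genes called lower. Adamts1 fell from 260.5 to 71.6 CPM (log2 fold change -1.86), Adamts5 from 155 to 65.4 CPM (-1.24) and Adamts9 from 16.6 to 2.75 CPM (-2.59), with standard errors of 0.09, 0.09 and 0.19 and edgeR adjusted p-values of 1.68e-06, 1.80e-05 and 1.70e-05. Adamts4 had a log2 fold change of -0.30 and was not called. Adamts9 was higher with ATA, at 6.32, 5.85 and 5.22 CPM in TC + ATA against 2.75 CPM in TC (log2 fold change 1.07, SE 0.18, edgeR adjusted p = 0.0426). This call was lost in 6 of 13 settings, including the 3 fits without 1 of the TC + ATA replicates (edgeR adjusted p = 0.129 to 0.172), the replicate block (edgeR adjusted p = 0.113) and scaling by library size (edgeR adjusted p = 0.0725).

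The genes grouped under heavy chain transfer onto hyaluronan are those of the enzyme TSG-6 (Tnfaip6), of the inter-alpha-trypsin inhibitor chains and of the pentraxin PTX3, which crosslinks them. Of 8 such genes, 5 were tested, and in TC versus EV 1 was higher and 1 lower, beside 28.0% of all genes called in either direction. Ptx3 had 106 and 101 CPM in EV, 21.9 CPM in TC and 60.2, 62.7 and 57.9 CPM in TC + ATA. Like those of Cemip, its 3 groups did not overlap, with TC + ATA between TC and EV. Its log2 fold changes were -2.24 from EV to TC (SE 0.10, edgeR adjusted p = 1.00e-06) and 1.46 from TC to TC + ATA (SE 0.09, edgeR adjusted p = 0.00126). Both calls held in all 13 settings, but both rest on the only TC library, which no setting left out. Itih4, a heavy chain gene, rose from 0.615 to 1.53 CPM (log2 fold change 1.31, edgeR adjusted p = 0.0151), a call lost with the replicate block (edgeR adjusted p = 0.0956). Tnfaip6 had a log2 fold change of 0.01 and was not called.

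Over the 46 further hyaluronan genes examined, members left out, 35 were tested. In TC versus EV, 7 of them were higher and 10 lower, 48.6% of the genes tested, beside 28.0% of all genes, and their median log2 fold change was -0.04. From TC to TC + ATA, 2 (Ptx3 and Adamts9) were higher and edgeR called none lower, 5.71% of the genes tested beside 0.583% of all genes. At an unadjusted p under 0.05, 6 were higher and 1 lower, and DESeq2 called 3 higher and none lower.

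**Figure D4:**
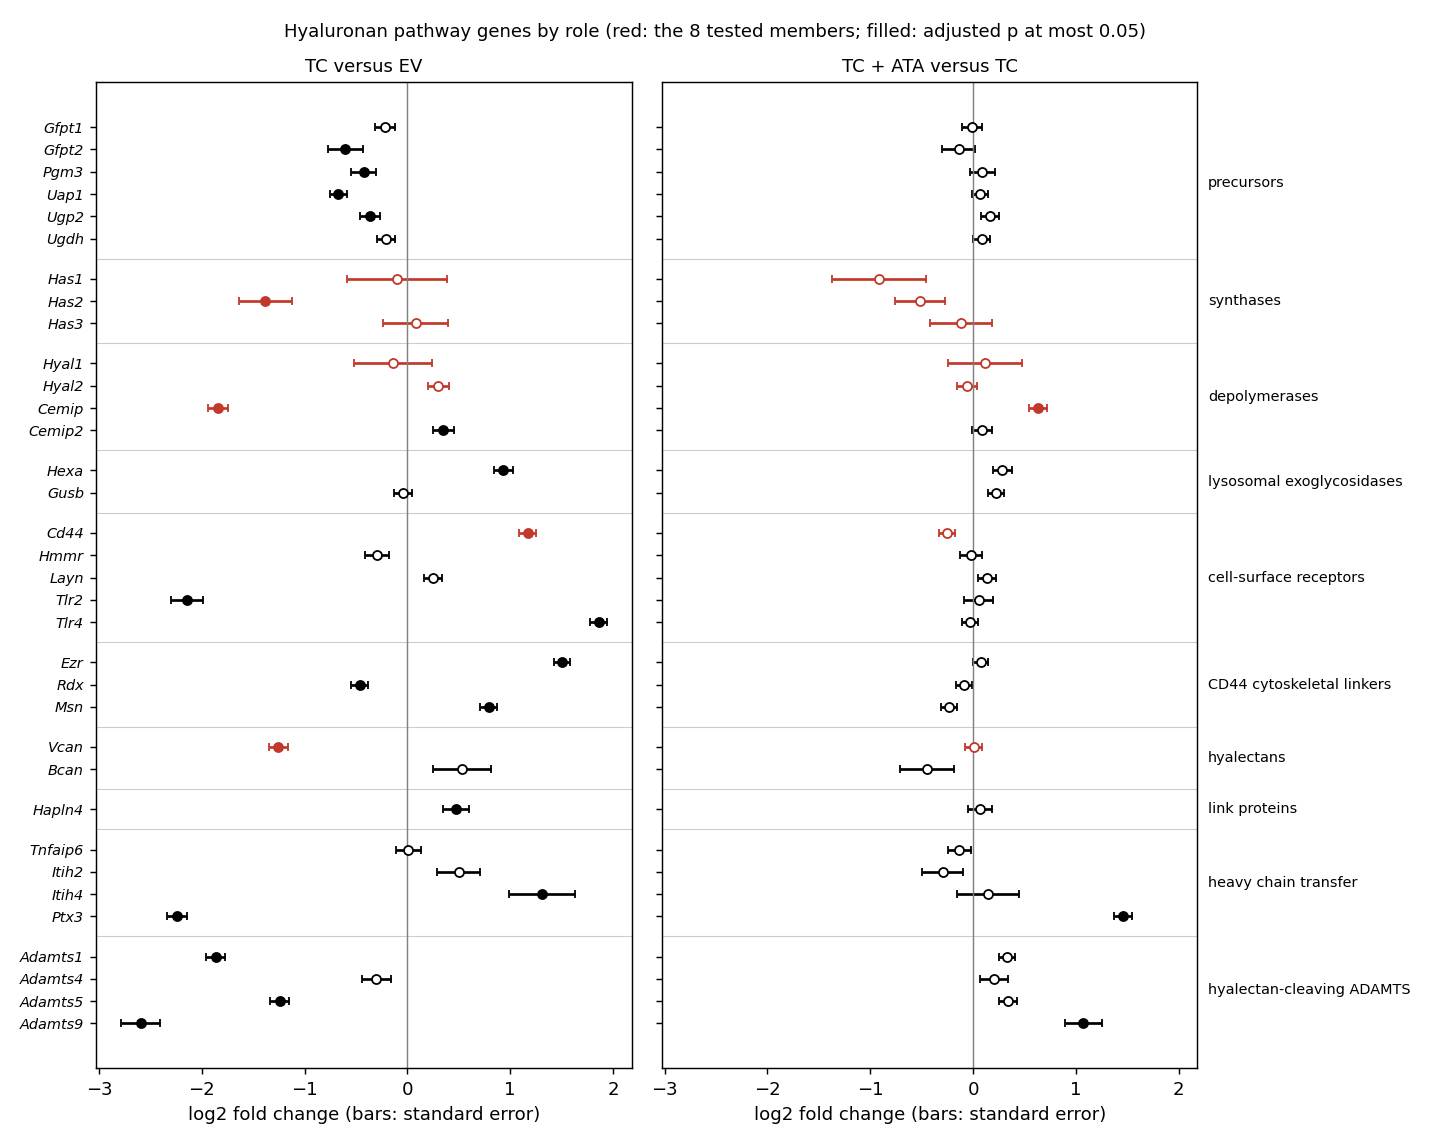
Log2 fold changes (horizontal axes, bars: standard errors) of 34 hyaluronan pathway genes with a mean of at least 0.5 CPM, by role, from EV to TC and from TC to TC + ATA; red marks the 8 tested members and filled points an adjusted p of at most 0.05. Adamts1, Adamts5, Adamts9 and Ptx3 lie on the lower side with Cemip, Has2 and Vcan in TC versus EV, and Cemip, Ptx3 and Adamts9 are the filled points in TC + ATA versus TC.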

How the data were processed

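Total RNA was extracted from NIH3T3 cells (2 EV, 1 TC and 3 TC + ATA libraries), and poly(A)-selected libraries were sequenced with paired ends. The authors aligned reads to GRCm38.p6 (mm10) with HISAT2 2.2.1 and deposited raw counts per gene from featureCounts. The annotation release, the use of strand and whether both mates of a pair were counted are not given in the sources used here. Of the counts from 1 to 20, 60.4 to 62.9% per library were even numbers, so single counts may not be independent and no counting intervals are given. Library totals were 58471484 to 74413193 counts, and 3 counts of the total is the smallest level taken as detectable.

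Groups and replicate numbers came from the sample titles. Groups were compared with edgeR 4.0.16 in R 4.3.3 (TMM scaling, filterByExpr, glmQLFit and glmQLFTest, one fit of all 6 libraries with 3 residual degrees of freedom, Benjamini-Hochberg adjustment over 18539 genes). Standard errors came from the F statistic, and 95% intervals from the t distribution. Alternatives were DESeq2 1.42.0, RLE or library-size scaling, other filters, only the groups compared, a replicate block, a prior count of 2 and leaving out each EV or TC + ATA replicate. On simulated counts for TC versus EV, 181 of 200 changed genes were called among 18539, with 18 unchanged genes called. The simulation gave every group the same spread and changed only 200 genes, unlike the data. It therefore checks the code and gives no error rate for the calls reported here. Symbols, positions and exonic lengths came from GENCODE M21 (GRCm38), which holds 55141 of the 55401 identifiers. Has2 shares 182 of 4237 exonic bases with the antisense gene Has2os and Has3 shares 352 of 6380 with Chtf8. Has1, Hyal2, Cemip, Cd44 and Vcan share none. Pgm3 (1270 of 4487 bases), Hexa (255 of 1996) and Adamts9 (1805 of 15048) also overlap other genes, so their counts are less certain. A gene of the wider lists is counted in the totals but not reported here.

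The members and gene lists were chosen with earlier results of these data known. The text names all 9 members, the genes of the wider lists called in TC versus EV or TC + ATA versus TC that averaged 1 CPM or more, and paralogs and neighbours of members. Uncalled genes named beside them, and the TATA and GC box motifs, were added after the data were seen, as were the alternative settings for genes that are not members.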

Additional observations from a re-analysis of the deposited data

How the results depend on the processing

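The calls of Cemip, Has2, Vcan and Cd44 against EV, in TC as in TC + ATA, held in all 13 alternative settings. None of these settings left out the only TC library, on which every comparison with TC rests. Among these settings, the prior count of 2 changes only the fold change and leaves the p-values as they were. It could not end or add a call, here or in the other tallies of settings. The counts in TC + ATA versus TC moved most. Against 108 genes in all and 1 member, DESeq2 called 320 genes, a filter of 1 read 350, and the fit of only the groups compared 1428 genes and 2 members (Cemip and Cd44). With each replicate left out in turn, 10 to 1469 genes and 0 to 2 members were called. The replicate block gave 40 genes and 0 members there, and 3184 genes in TC versus EV against 5191. Deviations of same-numbered EV and TC + ATA libraries from the means of their groups had correlations of -0.029 and -0.086 across genes. The deviations of the 2 EV libraries mirror each other, so these are not separate checks. The only TC library has no such deviation and was not checked. These values therefore do not decide whether the numbers pair the libraries. TC + ATA replicate 3 is the only library with its number, so the block takes it out of every comparison. The block also leaves fewer residual degrees of freedom, so calls lost with it may reflect less information. Where EV was left with 1 library, its spread was taken to be that of the TC + ATA libraries. The main fit gives all groups one estimate of the spread, but their libraries differed unequally. A chi-square of the counts per degree of freedom was 67.3 between the EV libraries and 6.23 to 7.04 between TC + ATA libraries. Correlations of log2 CPM were 0.989 and 0.986 to 0.991. The part of this difference in the calls and standard errors was not tested.

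Reversals touched only changes that were not called. In TC versus EV, Has3 had a log2 fold change of -0.037 with scaling by library size, which moved the median of all genes by -0.11 there, and -0.17 to 0.36 with single replicates left out. In TC + ATA versus TC, the replicate block gave -0.0032 for Hyal1 and 0.019 for Hyal2, and Vcan had -0.024 (without TC + ATA replicate 1) to 0.039 with single replicates left out. In TC + ATA versus EV, leaving out single replicates gave -0.29 to 0.25 for Has3 and -0.15 to 0.10 for Hyal1. Hyal2 passed the threshold in TC versus EV with a filter of 1 CPM in 2 libraries (adjusted p = 0.0336 from edgeR) and without EV replicate 1 (adjusted p = 0.00341 from edgeR). The cause of these changes was not tested. At 20 to 68 counts, Has1 and Hyal1 leave wide intervals.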
